A study of Mus musculus with 18 samples.

Results

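This comparison set the colons of 3 Claudin-2TG AOM-DSS mice (mice 7, 8 and 9) against those of 3 WT AOM-DSS mice (mice 4, 5 and 6), chosen by their genotype and treatment labels, which makes 6 of the 9 mice of the series and 12 of its 18 sequenced lanes. Both groups were C57BL/6 mice given a single dose of azoxymethane (AOM, a colon carcinogen) at 10 mg/kg body weight and 3 cycles of 2.5% dextran sulfate sodium (DSS, which injures the colonic epithelium), a regimen that produces colitis-associated cancer. Claudin-2TG mice carried a Cldn2 transgene under the Villin promoter, which is active in the intestinal epithelium, and the methods describe WT mice as littermates. The remaining 3 mice, WT Control, had the treatment label Control, although the protocol text attached to them also names the AOM and DSS treatment; their values are given beside the others. The labels give neither the age of the mice nor the region of colon, and RNA came from colon tissue. The study asked whether raised claudin-2 in the epithelium changes the susceptibility to colitis-associated cancer, and the comparison shows which colonic RNAs differed between the genotypes under that treatment.

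Claudins are membrane proteins of the tight junction that set which ions and how much water pass between epithelial cells, and claudin-2 forms a pore for cations and water. The colonic epithelium absorbs sodium chloride, water, minerals and short-chain fatty acids, burns butyrate in its mitochondria, and detoxifies compounds from the lumen. Stem cells at the crypt base renew it and give rise to absorptive colonocytes, goblet cells and enteroendocrine cells.

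The mice had 14142711 to 22262546 counts each, and the shallowest were WT AOM-DSS mouse 6 and Claudin-2TG AOM-DSS mice 7 and 9. Levels below are in CPM, counts relative to the total of the library, adjusted with TMM factors over the 9 mice. They are listed in the order of mice 1, 2 and 3 (WT Control), 4, 5 and 6 (WT AOM-DSS) and 7, 8 and 9 (Claudin-2TG AOM-DSS), and a change from one set of values to another is from WT AOM-DSS to Claudin-2TG AOM-DSS mice, not over time. On the first principal component of log2 CPM (51.8% of the variance), Claudin-2TG AOM-DSS mice lay between -36.1 and -24.7 and WT Control mice between -43.1 and -26.6, whereas WT AOM-DSS mouse 4 lay at 27.4 and mice 5 and 6 at 74.9 and 88.0. WT AOM-DSS mouse 4 stood closest to the other groups. The second component (17.3%) set the transgenic mice (22.2 to 40.1) apart from WT Control mice (-40.8 to -23.3), with WT AOM-DSS mice between them (-2.12 to 5.77). The 15 pan-epithelial markers summed to 24250 to 31391 CPM in WT AOM-DSS mice and to 26468 to 30777 CPM in Claudin-2TG AOM-DSS mice, so these ranges overlapped, and Cdh1, the epithelial cadherin, was at 1001, 1429.6 and 1262 CPM against 1552, 1361 and 1541 CPM. Of the 15, 1 was lower in Claudin-2TG AOM-DSS mice at an edgeR adjusted p under 0.05 and none was higher. The log2 fold changes of the list ran from -6.28 to 0.33. In RNA of whole tissue, fewer cells of a type and less RNA per cell cannot be told apart.

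Cldn2 (ENSMUSG00000047230, chromosome X, 139800828 to 139811386 on GRCm38), the gene of the transgene, was at 122, 136 and 134 CPM in WT AOM-DSS mice 4, 5 and 6 and at 209, 217 and 249 CPM in Claudin-2TG AOM-DSS mice 7, 8 and 9. Every transgenic mouse was above every WT AOM-DSS mouse, by a log2 fold change of 0.78 ± 0.12 (SE; 1.72-fold, edgeR adjusted p = 0.0103); the exact permutation test gave 0.1, the smallest p that 3 against 3 mice allow. WT Control mice had 191, 258 and 243 CPM, so the transgenic mice lay above WT Control mouse 1 and mice 7 and 8 lay below WT Control mice 2 and 3. WT Control mouse 1 differed from the other 8 mice in its Y-linked RNA (0.497 CPM against 146 to 190 CPM), and Cldn2 is on the X chromosome; the part of this in its Cldn2 level was not tested. Gene counts do not separate transgene RNA from RNA of the endogenous gene. Without Claudin-2TG AOM-DSS mouse 8 the adjusted p was 0.058 and without mouse 9 it was 0.0597, at log2 fold changes of 0.82 and 0.71.

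Of 14888 genes tested, 326 (2.19%) were higher and 1095 (7.35%) lower in Claudin-2TG AOM-DSS mice than in WT AOM-DSS mice at an adjusted p under 0.05, 9.54% in either direction. Without adjustment, 3498 genes (23.5%) had a p under 0.05. A gene that passed is said below to have risen, fallen or been called. The genes called higher had a median log2 fold change of 0.83 and those called lower of -2.03, whereas the median of all genes tested was 0.008. The 326 were mostly protein-coding (311 genes), and in each of them the groups' mice did not overlap; 12.8% of all genes tested were higher without overlap and 15.2% lower. In 318 of the 326, the WT AOM-DSS mean was below the lowest WT Control mouse. The Claudin-2TG AOM-DSS mean lay within the WT Control range for 138, below it for 92 and above it for 96. These positions describe genes that were selected for a high level in the same transgenic mice and a low one in the same WT AOM-DSS mice.

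The number of calls depended on single mice. Without WT AOM-DSS mouse 4, 5 or 6, 919, 108 and 151 genes were called higher, and without Claudin-2TG AOM-DSS mouse 7, 8 or 9, 80, 10 and 22. The signs of the 326 held in 325 to 326 of them in these 6 fits. Of the 326 genes, 7 stayed called in all 6: Cpm, Dpyd, Gsdmc4, Gsdmcl2, Lipg and 2 with predicted names; apart from Dpyd they were named here after their values were seen. Cpm, a carboxypeptidase of the cell membrane, rose from 25.1, 23.1 and 16.4 to 80.0, 63.1 and 74.1 CPM (1.74 ± 0.18 on the log2 scale, edgeR adjusted p = 0.0042). Lipg, endothelial lipase, rose from 19.0, 22.1 and 17.3 to 51.4, 51.2 and 56.3 CPM (1.44 ± 0.14, edgeR adjusted p = 0.00298). Gsdmc4, a gasdermin, rose from 447, 546 and 392 to 1107, 1169 and 1118 CPM (1.29 ± 0.15, edgeR adjusted p = 0.00625), although reads of the near-identical gasdermin C copies may be split between them.

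The largest increases among genes of at least 1 CPM, leaving out predicted genes and pseudogenes, included transporters, enzymes and a hormone receptor. Slc30a10 (chromosome 1, 185454848 to 185468762), which exports manganese from cells, was at 3.53, 0.964 and 0.204 CPM in WT AOM-DSS mice and 40.0, 15.4 and 39.8 CPM in Claudin-2TG AOM-DSS mice, a log2 fold change of 4.30 ± 0.81 (edgeR adjusted p = 0.0255). Its WT Control values were 18, 24.3 and 12.8 CPM, and Claudin-2TG AOM-DSS mouse 8 was lower than mice 7 and 9. Mptx2, a mucosal pentraxin, was at 0.571, 1.14 and 4.62 CPM and 21.4, 14.9 and 13.7 CPM (3.03 ± 0.67, edgeR adjusted p = 0.0357), and all 3 transgenic mice exceeded the WT Control mice (11.6, 9.97 and 8.56 CPM). Dpyd, which starts the breakdown of uracil and thymine, rose from 3.06, 2.50 and 1.22 to 15.5, 14.4 and 18.4 CPM (2.81 ± 0.32, edgeR adjusted p = 0.00529) and overlapped the WT Control mice (14.5, 20 and 18.4 CPM). Prlr, the prolactin receptor, rose from 0.416, 0.395 and 0.204 to 3.52, 2.72 and 1.68 CPM (2.90 ± 0.43, edgeR adjusted p = 0.00879). The other 8 of the 12 largest with this limit were Rims4, mt-Tq, Tmem35a, Trpm6, Klk1b4, Naaladl1, Ces1f and Gnat3, at log2 fold changes of 1.91 to 2.71. Gnat3, the gustducin subunit of chemosensory cells, rose from 0.208, 0.395 and 0.340 to 1.38, 0.755 and 1.54 CPM, at most 1.54 CPM in any AOM-DSS mouse. Of 14 listed tuft cell (chemosensory) genes tested, none rose and Ptgs1, a cyclooxygenase, fell (-1.60; 7.14%, against 7.35% of all genes), at a median of 0.11, and Dclk1 and Trpm5 were not called. Naaladl1, a peptidase, rose from 13.6, 13.5 and 6.45 to 44.8, 48.9 and 44.8 CPM and stood above all 3 WT Control mice (36.9, 40.6 and 31.6 CPM). For mt-Tq, a mitochondrial transfer RNA gene, and Klk1b4, one of a family of near-identical kallikreins, the assignment of reads is uncertain. Left out by this limit were 4 called genes whose log2 fold change exceeded that of Gnat3, among them the pseudogene Gm13736, which exceeded Slc30a10 as well, at 0, 0.0438 and 0 CPM in WT AOM-DSS mice and 3.25, 2.97 and 2.63 CPM in Claudin-2TG AOM-DSS mice.

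Measured by the difference in mean level, the largest increases among called genes included Clca1, Ckmt1, Car4, Adh1 and Aqp8. Pigr, which carries immunoglobulin A across the epithelium, differed by more than Ckmt1 without being called (2829, 4139.6 and 3166 and 5292, 4803 and 5605 CPM, edgeR adjusted p = 0.0587). Ckmt1, the mitochondrial creatine kinase, went from 2331, 1824 and 1677 CPM to 3599.7, 3821 and 3456 CPM (1.86-fold; 0.90 ± 0.16, edgeR adjusted p = 0.0131). The downward extremes, with the same limit (which left out 2 genes), were at low levels in transgenic and control mice alike. Prss56, a serine protease, was at 2.91, 5.52 and 2.58 CPM in WT AOM-DSS mice and had no count in the other mice, which makes it at least 19.1-fold lower in Claudin-2TG AOM-DSS mice (against 3 counts per library). Aox4, an aldehyde oxidase, was at 0.779, 0.964 and 2.65 CPM with no count in the transgenic mice, at least 7.6-fold lower by the same limit. Wnt10a, Mt4, Lgr6 and Prss22 reached 35.2, 142, 14.7 and 47.5 CPM in the highest WT AOM-DSS mouse and at most 0.586 CPM in any transgenic mouse.

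Promoters were searched for 3 motifs to show what the letters near the start sites of these genes hold. The search used RefSeq sequences on GRCm38.p6, 250 bases before to 50 after the start, for 10970 of the 14853 tested genes with a symbol, on both strands, and none of the motifs contains another. TTTATTG, letters bound by the intestinal factors CDX1 and CDX2 and by posterior HOX proteins, was present in 15 of 249 promoters of genes called higher (6.02%), in 23 of 768 of genes called lower (2.99%) and in 2.77% of all. TGACTCA, the letters of an AP-1 site, was present in 3.61% of promoters of genes called higher, in 7.94% of genes called lower and in 3.89% of all. CAAAGTCCA, an HNF4 site, was in 2, 5 and 51 promoters (0.803%, 0.651% and 0.465%). A match is a description of the letters, not a bound site. Genes named here held the letters in both directions: Slc6a14 and Esrrg rose and hold the AP-1 letters, and Slc28a2 fell and holds the CDX letters. The promoters below are examples, chosen after their values were seen. The first 4 belong to genes that rose and hold TTTATTG, and the last to Aox4, which fell and holds TGACTCA; capitals mark these letters, which begin 6, 65, 128, 155 and 48 bases before the start.
Aqp8 (chr7:123462044-123462343, + strand): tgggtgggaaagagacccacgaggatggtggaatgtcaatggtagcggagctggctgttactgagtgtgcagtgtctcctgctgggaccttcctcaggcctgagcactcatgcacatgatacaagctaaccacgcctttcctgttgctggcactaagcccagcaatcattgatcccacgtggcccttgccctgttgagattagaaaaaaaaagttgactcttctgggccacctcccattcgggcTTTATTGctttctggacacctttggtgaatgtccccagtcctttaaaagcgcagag
Fabp2 (chr3:122894822-122895121, + strand): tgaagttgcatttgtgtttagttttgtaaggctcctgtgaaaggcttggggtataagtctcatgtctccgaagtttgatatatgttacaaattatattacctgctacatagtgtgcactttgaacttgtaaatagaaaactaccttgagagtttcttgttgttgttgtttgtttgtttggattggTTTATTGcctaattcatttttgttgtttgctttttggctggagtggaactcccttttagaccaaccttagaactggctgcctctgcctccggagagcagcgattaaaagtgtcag
Mptx2 (chr1:173277707-173278006, - strand): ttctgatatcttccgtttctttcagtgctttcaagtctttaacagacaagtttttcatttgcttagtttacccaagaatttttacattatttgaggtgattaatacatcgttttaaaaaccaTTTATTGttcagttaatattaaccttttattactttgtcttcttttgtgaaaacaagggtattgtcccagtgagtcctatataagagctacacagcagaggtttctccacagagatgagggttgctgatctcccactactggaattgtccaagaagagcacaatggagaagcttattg
Pck1 (chr2:173152823-173153122, + strand): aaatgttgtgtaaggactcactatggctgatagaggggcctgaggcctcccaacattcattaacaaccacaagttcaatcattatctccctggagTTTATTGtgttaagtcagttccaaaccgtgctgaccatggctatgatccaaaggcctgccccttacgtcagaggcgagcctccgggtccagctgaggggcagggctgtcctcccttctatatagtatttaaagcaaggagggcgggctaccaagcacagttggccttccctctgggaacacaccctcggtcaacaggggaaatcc
Aox4 (chr1:58210147-58210446, + strand): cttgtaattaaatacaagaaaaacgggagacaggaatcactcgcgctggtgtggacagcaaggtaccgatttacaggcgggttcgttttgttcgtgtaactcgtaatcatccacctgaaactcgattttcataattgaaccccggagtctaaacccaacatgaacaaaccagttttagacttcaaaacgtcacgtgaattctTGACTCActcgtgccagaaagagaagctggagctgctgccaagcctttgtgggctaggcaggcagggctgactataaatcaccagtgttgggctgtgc

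Across the 8 lists of transport genes (140 of 154 genes tested), 19 rose (13.6%, against 2.19% of all genes) and 10 fell (7.14%, against 7.35%). Without overlap, 41 were higher (29.3%, against 12.8% of all genes) and 18 lower (12.9%, against 15.2%), with a median log2 fold change of 0.15. The members of these and the following lists were chosen with earlier results of these data known. Their shares, set beside those of all genes, are therefore a description and not an independent test. Sodium, chloride and bicarbonate transporters included 4 members that rose (18.2%, against 2.19% of all genes) and none that fell among 22 tested. Slc26a2, a sulfate and anion exchanger, went from 495, 436 and 274 to 1085, 849.8 and 837 CPM (1.20 ± 0.22, edgeR adjusted p = 0.016). Cftr, the apical chloride channel that secretes fluid in crypts, rose from 65.0, 50.6 and 40.1 to 142, 136 and 112 CPM (1.32 ± 0.19, edgeR adjusted p = 0.0082), beside 149, 132 and 139 CPM in WT Control mice. Slc4a4, which takes up sodium and bicarbonate across the basolateral membrane, rose from 78.0, 46.9 and 31.1 to 118, 127 and 111 CPM (1.18 ± 0.29, edgeR adjusted p = 0.0455).

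The chloride and bicarbonate exchanger Slc26a3, the main route of chloride absorption in colon, did not pass: 856, 462 and 270.2 CPM in WT AOM-DSS mice and 969, 1314 and 1483 CPM in Claudin-2TG AOM-DSS mice, without overlap (1.25 ± 0.40, edgeR adjusted p = 0.104). The sodium and hydrogen exchangers Slc9a2 and Slc9a3 had log2 fold changes of 0.75 ± 0.29 and 0.66 ± 0.32 (edgeR adjusted p = 0.161 and 0.263). For the epithelial sodium channel, subunit Scnn1a was 0.46 ± 0.17, Scnn1b -0.71 ± 0.39 and Scnn1g -1.76 ± 0.64, all without a call. Prss8, a protease that activates this channel, rose (62.8, 46.9 and 50.1 to 83.5, 69.6 and 84.9 CPM, edgeR adjusted p = 0.0462). Guca2b (uroguanylin) fell from 21.4, 20.7 and 27.8 to 13.2, 17.0 and 13.6 CPM, whereas the related hormone Guca2a (guanylin) was 784, 311 and 227 CPM and 772, 1003 and 977 CPM and was not called (edgeR adjusted p = 0.201). Prkg2, a cGMP-dependent kinase downstream of these hormones, fell from 3.43, 17.2 and 52.5 to 0.898, 0.352 and 0.220 CPM and differed widely among WT AOM-DSS mice.

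Of 4 water channels tested, 2 rose (50%, against 2.19% of all genes). Aqp8 (chromosome 7, 123462291 to 123468004), an aquaporin of surface colonocytes, was at 449, 266 and 168 CPM in WT AOM-DSS mice and 866, 1095 and 1209 CPM in Claudin-2TG AOM-DSS mice (1.84 ± 0.34, edgeR adjusted p = 0.019), with 1122, 798 and 593 CPM in WT Control mice. Aqp4, a basolateral water channel, rose from 171, 157 and 161 to 255, 289 and 293 CPM (0.77 ± 0.12, edgeR adjusted p = 0.00881). Of 10 carbonic anhydrases, which interconvert carbon dioxide and bicarbonate, Car4 (chromosome 11, 84957786 to 84966044) was the one called: 732, 458 and 287 CPM in WT AOM-DSS mice and 1767, 1680.0 and 2060.4 CPM in Claudin-2TG AOM-DSS mice (3.73-fold, edgeR adjusted p = 0.0131). This 1 gene makes 10% of the list, against 2.19% of all genes. Car1 varied widely within groups (1886, 526 and 507 and 726, 1418 and 1684 CPM) and was not called. Kcnq1, a potassium channel, was the 1 of 8 potassium channels and pumps that rose (82.8, 95.1 and 94.7 to 126, 147 and 127 CPM), and all 3 transgenic mice exceeded the WT Control mice (94.3, 96.0 and 96.6 CPM). It makes 12.5% of that list, against 2.19% of all genes.

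Trpm6 (chromosome 19, 18749983 to 18892511), the magnesium channel of absorptive epithelia, was at 41.9, 18.8 and 11.9 CPM in WT AOM-DSS mice and 139.7, 133 and 146 CPM in Claudin-2TG AOM-DSS mice (5.74-fold; 2.52 ± 0.42, edgeR adjusted p = 0.0162). All 3 transgenic mice were below the WT Control mice (258, 204 and 174 CPM). Trpv6 (chromosome 6, 41620624 to 41636405), the apical calcium channel, ran the opposite way, at 81.8, 75.7 and 89.7 CPM in WT AOM-DSS mice and 13.1, 10.4 and 17.3 CPM in Claudin-2TG AOM-DSS mice (6.08-fold lower, edgeR adjusted p = 0.000764), and was called in all 6 fits without 1 mouse. The transgenic mice lay below the WT Control mice as well (37.6, 60.5 and 58.6 CPM). Slc30a1, a zinc exporter, rose from 27.3, 30.6 and 28.0 to 49.6, 39.1 and 46.8 CPM, and Cybrd1, an iron-reducing enzyme, fell from 1.66, 2.24 and 1.49 to 0.207, 0.402 and 0.0732 CPM. Of the 23 metal and mineral transporters tested, 3 rose (13.0%, against 2.19% of all genes) and 2 fell (8.70%, against 7.35%). None was called higher without WT AOM-DSS mouse 5 or without any one of the 3 Claudin-2TG AOM-DSS mice, and 1 to 3 were called lower with 1 mouse left out.

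Of 45 nutrient and organic solute carriers tested, 6 rose (13.3%, against 2.19% of all genes) and 3 fell (6.67%, against 7.35%). Slc5a8, the sodium-coupled carrier of butyrate and lactate, rose from 231, 193 and 147 to 391, 384 and 406 CPM (1.04 ± 0.17, edgeR adjusted p = 0.0108), and Slc16a1, the proton-coupled carrier of the same substrates, from 412, 301 and 227 to 571, 577 and 613 CPM (0.90 ± 0.20, edgeR adjusted p = 0.0282). The transgenic values of Slc5a8 lay inside the WT Control range (406, 456 and 373 CPM). Also called upward were the amino acid carriers Slc6a14 (347, 292 and 255 to 657, 719 and 665 CPM) and Slc1a1 (24.7, 23.0 and 15.7 to 51.6, 45.6 and 47.4 CPM), the phosphate carrier Slc34a2 (0.94 on the log2 scale) and the glucose carrier Slc5a1 (0.50). The 3 that fell, Slc28a2 for nucleosides, Slc13a1 for sulfate and Slc51a for bile acids, did not exceed 1.49 CPM in any AOM-DSS mouse. ABC transporters pump drugs and conjugates out of cells. Of 17 tested, 1 rose (5.88%, against 2.19% of all genes) and 3 fell (17.65%, against 7.35%), at a median of -0.21. Abcg2 rose from 45.8, 70.2 and 45.2 to 94.7, 86.9 and 103 CPM, and Abcc2, Abcc5 and Abcd4 fell. Abcc2 went from 6.03, 14.9 and 28.1 to 3.04, 2.77 and 2.42 CPM (edgeR adjusted p = 0.0251). Abcb1a, another such pump, was not called (0.95 ± 0.33).

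Without WT AOM-DSS mouse 4, 5 or 6, 33, 7 and 11 of the tested transport genes were called higher, and without Claudin-2TG AOM-DSS mouse 7, 8 or 9, 6, 0 and 2. In the same order, 22, 4 and 7 and then 1, 1 and 1 were called lower. Scaled to the pan-epithelial markers, 14 rose and 7 fell, and with DESeq2 34 rose and 14 fell.

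**Figure D1:**
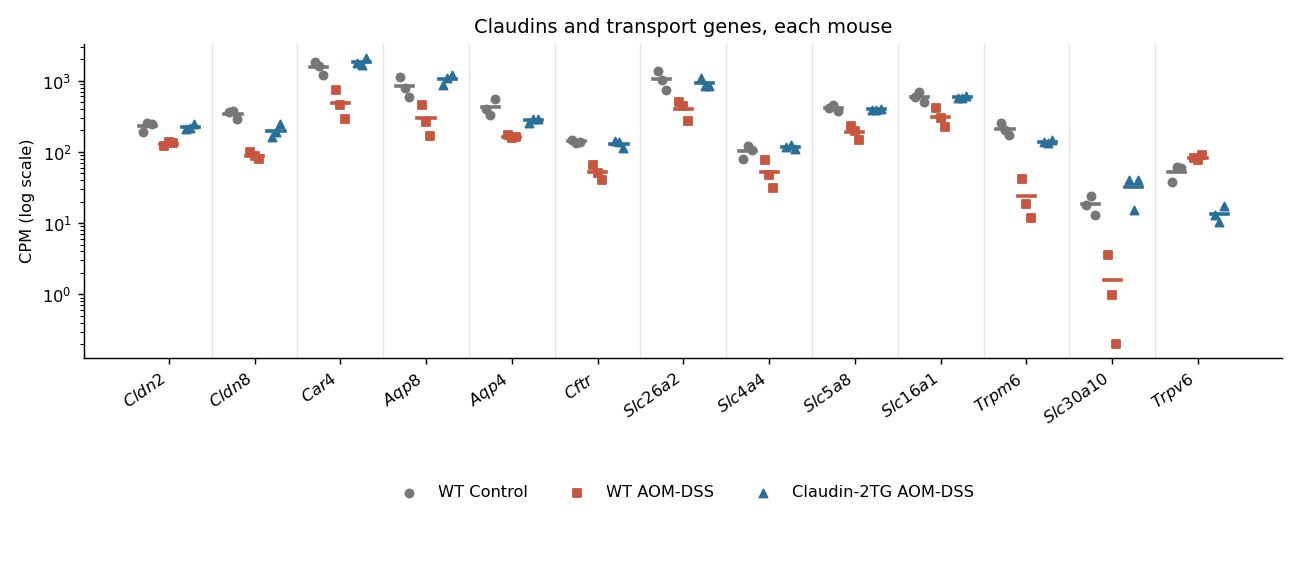
Level in CPM (log axis) of claudin and transport genes in each mouse; circles, squares and triangles are mice of WT Control, WT AOM-DSS and Claudin-2TG AOM-DSS, and bars are group means. Every gene shown is higher in all 3 Claudin-2TG AOM-DSS mice than in all 3 WT AOM-DSS mice, except Trpv6, which is lower.

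Metabolic lists held the most calls: of 329 genes tested in 11 lists, 59 rose (17.9%, against 2.19% of all genes) and 10 fell (3.04%, against 7.35%). Without overlap, 147 were higher (44.7%, against 12.8% of all genes) and 23 lower (6.99%, against 15.2%), and the median log2 fold change was 0.33. These lists too were chosen with earlier results of these data known, so the shares are a description. In fatty acid oxidation and ketogenesis, 9 of 31 genes rose and none fell, with a median of 0.50. Acsm3, which activates medium-chain fatty acids, rose from 119.5, 92.8 and 58.0 to 220.2, 207 and 178 CPM (1.16 ± 0.24, edgeR adjusted p = 0.0235). Bdh1, which interconverts ketone bodies, rose from 142, 118 and 115 to 194, 198 and 201 CPM, close to the 194, 198 and 197 CPM of WT Control mice (0.66 ± 0.12, edgeR adjusted p = 0.0155). Ppargc1b, a coactivator of mitochondrial genes, rose from 8.21, 10.3 and 5.77 to 18.7, 15.4 and 14.2 CPM. The enzymes Acads, Acadvl, Acad11, Hadh, Hadhb and Echs1 of the oxidation spiral rose by 0.53 to 0.65 on the log2 scale. Cpt1a, which admits fatty acids to mitochondria, was 221, 251 and 147 and 227, 255 and 373 CPM and was not called.

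In the citrate cycle and the nuclear-encoded respiratory chain, 4 of 43 genes rose (9.30%, against 2.19% of all genes), Suclg1, Suclg2 and Fh1 among them. None fell, but 35 of the 43 were higher in every transgenic mouse than in every WT AOM-DSS mouse (81.4%, against 12.8% of all genes). The median log2 fold change of the list was 0.37. The list had 20 genes called higher without WT AOM-DSS mouse 4, none without any other single mouse, 1 scaled to the pan-epithelial markers and 16 with DESeq2. Suclg1, a subunit of the ligase that makes succinate, went from 345, 272 and 257 to 419, 488 and 524 CPM (0.71 ± 0.15, edgeR adjusted p = 0.0256). Cs, citrate synthase, was 727, 589 and 484 CPM against 889, 898 and 924 CPM and was not called (edgeR adjusted p = 0.0544). Cat, catalase, rose from 46.5, 60.3 and 49.4 to 73.1, 77.8 and 76.4 CPM, Ehhadh rose by 0.50, and Hao2, a peroxisomal hydroxy acid oxidase, rose from 188, 73.5 and 64.4 to 375, 337 and 356 CPM (1.72 ± 0.40, edgeR adjusted p = 0.0404), below all WT Control mice (669, 695 and 631 CPM). Of 25 glycolysis and gluconeogenesis genes, Pck1, the gluconeogenic carboxykinase, was the one that rose (117, 54.9 and 45.8 to 195, 183 and 236 CPM; 1.50 ± 0.34, edgeR adjusted p = 0.0368). This 1 gene makes 4% of the list, against 2.19% of all genes.

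Amino acid catabolism had 13 of 32 genes that rose (40.6%, against 2.19% of all genes) and 1 that fell (3.12%, against 7.35%), with a median of 0.51. Urea cycle enzymes were among them: Cps1 went from 11.4, 9.16 and 10.2 to 28.9, 19.2 and 20 CPM (1.14 ± 0.20, edgeR adjusted p = 0.0131), and Otc from 8.26, 4.47 and 4.01 to 14.6, 16.0 and 15.7 CPM (1.46 ± 0.28, edgeR adjusted p = 0.0165). Cth, which makes cysteine, rose from 64.9, 46.4 and 37.2 to 89.6, 89.4 and 91.6 CPM, and the branched-chain and propionate enzymes Dbt, Ivd, Mccc1, Aldh6a1, Hibch, Hibadh, Pcca and Pccb rose by 0.48 to 0.78. Ido1, which degrades tryptophan, was the member that fell (15.3, 53.8 and 45.6 to 13.2, 7.90 and 8.20 CPM, edgeR adjusted p = 0.0449). Leaving out WT AOM-DSS mouse 4, 5 or 6 gave 16, 3 and 9 of the list called higher. With Claudin-2TG AOM-DSS mouse 7, 8 or 9 left out, 4, 0 and 1 were, and 7 were with scaling to the pan-epithelial markers.

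Phase II conjugating enzymes had 13 of 37 genes that rose (35.1%, against 2.19% of all genes) and 1 that fell (2.70%, against 7.35%), at a median of 0.50. Leaving out WT AOM-DSS mouse 4, 5 or 6 gave 19, 2 and 8 called higher. With Claudin-2TG AOM-DSS mouse 7, 8 or 9 left out, 5, 0 and 1 were, and 12 were with scaling to the pan-epithelial markers. Ugt2b35, a glucuronosyltransferase, rose from 11.6, 11.7 and 18.1 to 35.2, 42.4 and 38.6 CPM (1.49 ± 0.19, edgeR adjusted p = 0.00774) and Gstm1, a glutathione transferase, from 175, 129 and 98.9 to 266, 373 and 298 CPM (1.21 ± 0.22, edgeR adjusted p = 0.0146). Gstm2, Gstm3, Gstm4 and Gstm6 rose by 0.63 to 1.25; these copies share sequence, so their split of reads is uncertain. Sult1a1, a sulfotransferase, had 179, 54.4 and 52.7 and 334, 465 and 285 CPM, without overlap and without a call (edgeR adjusted p = 0.0713). Gsta4 fell from 62.1, 78.1 and 98.1 to 39.6, 53.7 and 45.0 CPM.

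Of 52 phase I enzymes, 8 rose (15.4%, against 2.19% of all genes) and 1 fell (1.92%, against 7.35%), at a median of 0.43. Ces1d, a carboxylesterase, rose from 16.6, 15.7 and 10.9 to 43.9, 40.9 and 30.0 CPM (1.40 ± 0.21, edgeR adjusted p = 0.00875). The monoamine oxidases Maoa (557, 426 and 385 to 814, 899.8 and 953 CPM) and Maob (24.1, 17.5 and 13.3 to 44.9, 50.1 and 40.7 CPM) rose together. Adh1, alcohol dehydrogenase, rose from 1402, 1220.3 and 1021 to 2344, 2099 and 1745 CPM (1.7-fold). Cyp2b10 was the one that fell, at 1.25, 2.19 and 6.38 CPM in WT AOM-DSS mice and 0.138, 0.0503 and 0 CPM in Claudin-2TG AOM-DSS mice. Of 24 lipid uptake and storage genes, Fabp2, Plin2 and Ces1f rose (12.5%, against 2.19% of all genes) and 1 fell (4.17%, against 7.35%). Ces1f, another carboxylesterase, went from 16.9, 10.3 and 8.08 to 32.6, 63.8 and 46.4 CPM (2.01 ± 0.33, edgeR adjusted p = 0.0131), with mouse 8 above the rest. Fabp2, a fatty acid binding protein, went from 24.2, 18.8 and 23.9 to 33.1, 35.2 and 35.6 CPM, and Dgat2, which makes triglyceride, fell from 124, 169.9 and 160.2 to 65.1, 65.2 and 90.0 CPM (edgeR adjusted p = 0.0131). None of 18 cholesterol synthesis genes was called.

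In retinoid and steroid conversion, 6 of 22 genes fell (27.3%, against 7.35% of all genes) and none rose, at a median of 0.19. Without overlap, 9 were higher (40.9%, against 12.8% of all genes) and 7 lower (31.8%, against 15.2%). Retsat, retinol saturase, was among the 9, at 63.1, 40.0 and 28.7 and 72.4, 95.4 and 104 CPM, and was not called (1.04 ± 0.28, edgeR adjusted p = 0.0554). Aldh1a3, which makes retinoic acid, went from 52.2, 185 and 152 to 4.97, 6.99 and 7.10 CPM (20.5-fold lower, edgeR adjusted p = 0.0082), beside 7.51, 8.01 and 7.31 CPM in WT Control mice. Dhrs9, a retinol dehydrogenase, fell from 23.8, 111 and 55.4 to 7.11, 4.78 and 10.0 CPM (edgeR adjusted p = 0.0274). Rdh10, Srd5a1 and Cyp26b1 were called as well, at log2 fold changes of -1.65, -1.24 and -1.72. Leaving out WT AOM-DSS mouse 4, 5 or 6 gave 6, 3 and 3 of the list called lower. With Claudin-2TG AOM-DSS mouse 7, 8 or 9 left out, 2, 0 and 0 were called lower.

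Of 23 nuclear receptors, which switch these enzyme genes, 5 rose (21.7%, against 2.19% of all genes) and none fell. Nr5a2 went from 23.4, 14.9 and 12.2 to 46.1, 45.3 and 52.5 CPM (1.50 ± 0.23, edgeR adjusted p = 0.00926), Esrrg from 7.58, 4.82 and 3.26 to 14.3, 12.3 and 10.7 CPM, and Vdr, the vitamin D receptor, from 278, 257 and 151 to 472, 394 and 422 CPM (0.90 ± 0.22, edgeR adjusted p = 0.0366). Hnf4a rose from 597, 758 and 532 to 969, 943 and 1017 CPM and Ppard by 0.69. The transgenic levels of Nr5a2 lay below the WT Control mice (66.7, 71.0 and 66.0 CPM).

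Without WT AOM-DSS mouse 4, 5 or 6, 117, 17 and 30 of the metabolic genes were called higher, and without Claudin-2TG AOM-DSS mouse 7, 8 or 9, 17, 0 and 3. In the same order, 19, 5 and 5 and then 3, 0 and 2 were called lower. Scaled to the pan-epithelial markers, 41 rose and 8 fell, and with DESeq2 98 rose and 13 fell.

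**Figure D2:**
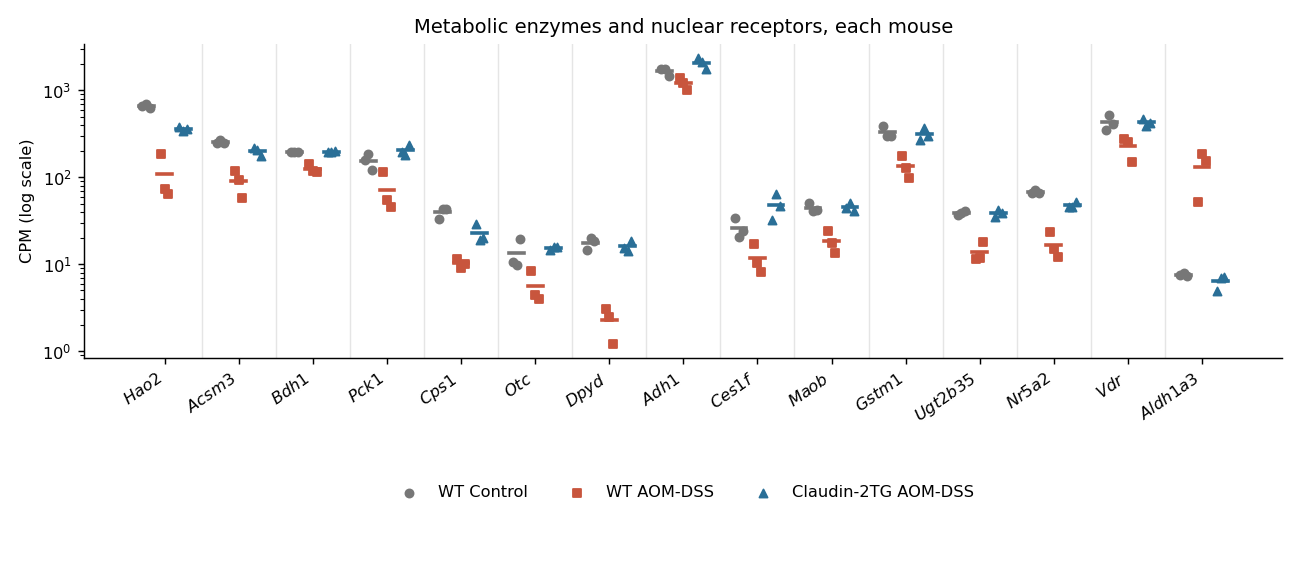
Level in CPM (log axis) of metabolic enzymes and nuclear receptors in each mouse, with symbols as for the transport genes and bars for group means. Aldh1a3 is lower in all 3 Claudin-2TG AOM-DSS mice than in all 3 WT AOM-DSS mice, and the other genes shown are higher in all 3.

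Of 228 differentiation genes tested in 10 lists, 22 rose (9.65%, against 2.19% of all genes) and 13 fell (5.70%, against 7.35%), at a median log2 fold change of 0.17. Without overlap, 49 were higher (21.5%, against 12.8% of all genes) and 24 lower (10.5%, against 15.2%). The choice of these lists was likewise made with earlier results of these data known, so the shares are a description. Among 25 goblet cell and mucus genes, 4 rose (16%, against 2.19% of all genes) and none fell. Clca1, a protease of goblet cell mucus, rose from 2076, 2269 and 1736 to 3989.5, 2730.2 and 5262 CPM (1.97-fold, edgeR adjusted p = 0.0372), the largest rise in CPM of all genes tested that were called. Nxpe2 rose from 82.8, 45.5 and 48.8 to 143, 209.6 and 192 CPM (1.62 ± 0.25, edgeR adjusted p = 0.0104), and Nxpe4 and Creb3l1 by 1.07 and 0.79. The main mucin, Muc2, was 2686, 2233 and 2052 CPM and 1619, 1654 and 2459 CPM, with overlap, and Fcgbp, a mucus protein, was 2723, 3148 and 2252 and 3125, 2968 and 3909 CPM; neither was called. Of 29 glycan transferases tested, 2 rose and 2 fell (6.90% each, against 2.19% and 7.35% of all genes). B3gnt7 (927, 718 and 485 to 1227, 1319.7 and 1628 CPM) and St3gal6 rose, and Hs3st1 and St3gal1 fell.

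The hormone genes Insl5 and Gcg of enteroendocrine L cells rose, at 83.8, 42.8 and 43.9 to 106, 141 and 186 CPM for Insl5 (edgeR adjusted p = 0.0368) and 30.5, 33.8 and 26.1 to 43.8, 62.6 and 95.4 CPM for Gcg (edgeR adjusted p = 0.0347). Their mice did not overlap, and mouse 9 had the highest Claudin-2TG AOM-DSS level of both. Each of the 2 stayed called in 1 of the 6 fits without 1 mouse. Pyy, another gut hormone gene, overlapped (225, 134 and 129 and 184, 249 and 201 CPM) and was not called (0.38 ± 0.23, edgeR adjusted p = 0.376). Isl1, a transcription factor of endocrine cells, fell from 3.90, 5.70 and 8.90 to 1.93, 2.06 and 2.12 CPM. Of 24 enteroendocrine genes tested, 2 rose (8.33%, against 2.19% of all genes), 1 fell (4.17%, against 7.35%) and 21 were not called. Of 21 surface colonocyte markers, 1 rose and 1 fell (4.76% each, against 2.19% and 7.35% of all genes): Cldn23 rose and Clca4b fell from 196, 1284 and 1318 to 34.2, 56.0 and 59.6 CPM; Krt20, a keratin of mature surface cells, overlapped (1020.0, 1253 and 1037 and 1121, 1175 and 1629 CPM). Dpp4, a brush border peptidase, was the 1 of 28 brush border genes that rose (25.8, 25.2 and 22.1 to 46.4, 45.5 and 46.4 CPM; 0.92 ± 0.12, edgeR adjusted p = 0.00777). This 1 gene makes 3.57% of the list, against 2.19% of all genes.

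Transcription factors of the intestinal epithelium that rose included Hnf4a, Vdr, Nr5a2 and Foxa2. Cdx1 and Cdx2 were 0.54 ± 0.16 and 0.51 ± 0.19 and were not called. Prox1, a homeobox factor expressed in enteroendocrine cells and in intestinal tumours, fell from 17.9, 44.2 and 74.4 to 2.42, 2.41 and 2.12 CPM (-4.29 ± 0.54, edgeR adjusted p = 0.00875), and the transgenic values were in the range of WT Control mice (1.84, 1.95 and 2.71 CPM).

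Tight junction genes that rose besides Cldn2 were Cldn8, Cldn23 and Ocln. Cldn8, a claudin that limits sodium leak in the distal colon, rose from 98.9, 86.7 and 79.9 to 162, 188 and 247 CPM (1.17 ± 0.17, edgeR adjusted p = 0.00879) and stayed below the WT Control mice (363, 377 and 285 CPM). Ocln, occludin, rose from 131, 135 and 99.0 to 226, 176 and 206 CPM (0.73 ± 0.16, edgeR adjusted p = 0.0259). Cldn1 fell from 1.25, 1.05 and 0.883 to 0.483, 0.352 and 0.220 CPM.

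Crypt stem cell genes split in both directions. Of 20 tested, 4 rose (20%, against 2.19% of all genes) and 6 fell (30%, against 7.35%), at a median of -0.52. Leaving out WT AOM-DSS mouse 4, 5 or 6 gave 4, 1 and 3 called higher and 10, 3 and 6 called lower. With Claudin-2TG AOM-DSS mouse 7, 8 or 9 left out, 1, 0 and 0 were called higher and 3, 0 and 0 lower. Lrig1, an inhibitor of growth factor receptors, went from 98.3, 85.6 and 85.3 to 164, 157 and 207 CPM (0.97 ± 0.14, edgeR adjusted p = 0.00879), and Ephb3, a receptor that positions crypt cells, from 45.6, 51.2 and 56.6 to 76.1, 80.5 and 79.8 CPM (0.62 ± 0.12, edgeR adjusted p = 0.019). Rgmb and Myb rose too (0.76 and 0.61). Notum, which inactivates Wnt ligands, went from 20.9, 35.9 and 99.7 to 0.621, 0.604 and 0.878 CPM (-6.22 ± 0.76, edgeR adjusted p = 0.00907), and Nkd1 from 42.9, 93.9 and 236 to 5.18, 3.07 and 2.05 CPM (-5.18 ± 0.75, edgeR adjusted p = 0.0131). Msi1 fell from 1.30, 4.16 and 6.38 to 0.207, 0.201 and 0.293 CPM, and Cd44, Prom1 and Tnfrsf19 fell as well (log2 fold changes of -1.44, -0.76 and -3.83). Msi1 passed the filter on low counts only through WT AOM-DSS mice, where it was high. Lgr5, a marker of crypt stem cells, was not called (5.56, 14.4 and 24.7 and 7.53, 8 and 6.22 CPM; -1.03 ± 0.47). None of 22 proliferation genes was called. Mki67 was 86.7, 84.3 and 107 and 134, 184 and 109 CPM (edgeR adjusted p = 0.0899) and Birc5 28.5, 28.3 and 43.7 and 39.4, 48.9 and 31.8 CPM (edgeR adjusted p = 0.559).

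Without WT AOM-DSS mouse 4, 5 or 6, 32, 12 and 14 of the differentiation genes were called higher, and without Claudin-2TG AOM-DSS mouse 7, 8 or 9, 10, 0 and 2. In the same order, 27, 5 and 10 and then 5, 0 and 0 were called lower. Scaled to the pan-epithelial markers, 15 rose and 14 fell, and with DESeq2 32 rose and 18 fell.

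Of 16 clock genes, 2 rose (12.5%, against 2.19% of all genes), 4 fell (25%, against 7.35%) and 10 were not called. Arntl, a core activator of the clock, was at 13.9, 12.1 and 8.56 CPM and 27.5, 24.4 and 31.6 CPM (1.27 ± 0.20, edgeR adjusted p = 0.0103), beside 76.6, 90.6 and 76.1 CPM in WT Control mice, and Npas2 rose from 10.9, 11.7 and 16.3 to 30.1, 27.9 and 30.2 CPM. Of the repressors, Cry1, Per1, Ciart and Bhlhe41 fell, and Per1 went from 66.4, 55.1 and 49.4 to 39.6, 30.2 and 31.1 CPM (edgeR adjusted p = 0.0226). The repressors Nr1d1 and Per2 were not called and lay in opposite directions without overlap, at 97.6, 82.8 and 42.7 and 144, 171 and 123 CPM for Nr1d1 (0.97 ± 0.29) and 118, 56.8 and 35.2 and 25.1, 25.6 and 26.9 CPM for Per2 (-1.44 ± 0.40). Dbp, a clock output gene, had 1.69, 1.85 and 1.38 CPM in WT Control mice against 98.2, 69.3 and 45.9 CPM in WT AOM-DSS and 61.0, 50.1 and 39.4 CPM in Claudin-2TG AOM-DSS mice. The labels give no time of day of collection, and the part of the clock in the other results was not tested. Without Claudin-2TG AOM-DSS mouse 8, none of the 16 was called.

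**Figure D3:**
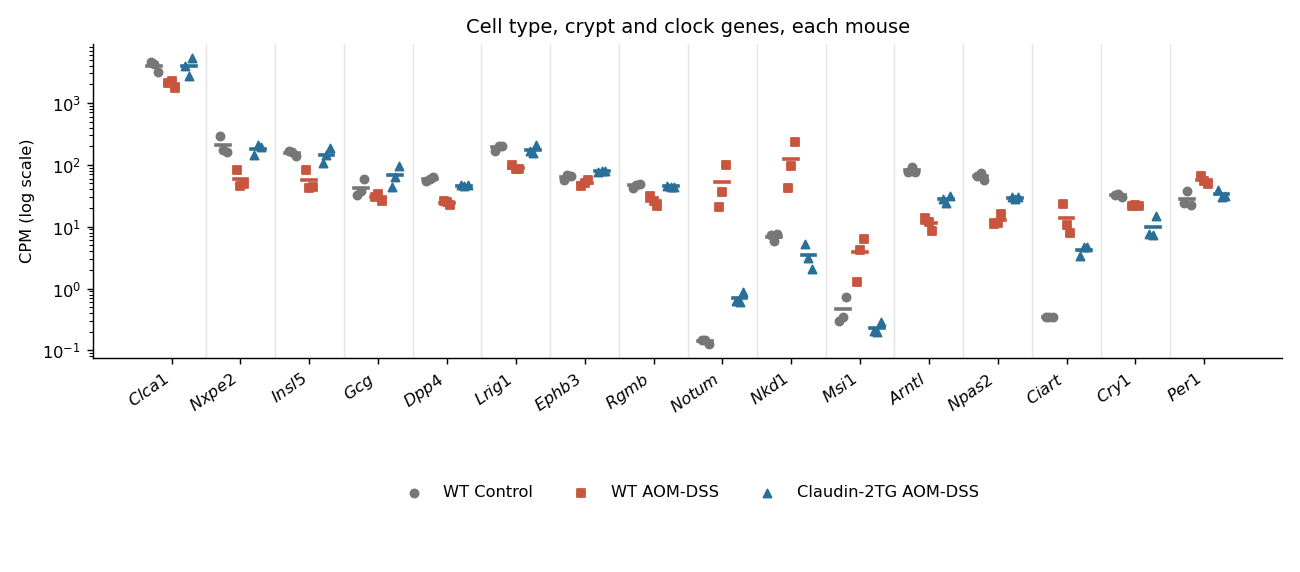
Level in CPM (log axis) of cell type, crypt and clock genes in each mouse, with symbols as above and bars for group means. Notum, Nkd1, Msi1, Ciart, Cry1 and Per1 are lower in all 3 Claudin-2TG AOM-DSS mice than in all 3 WT AOM-DSS mice and the other genes higher.

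**Figure D4:**
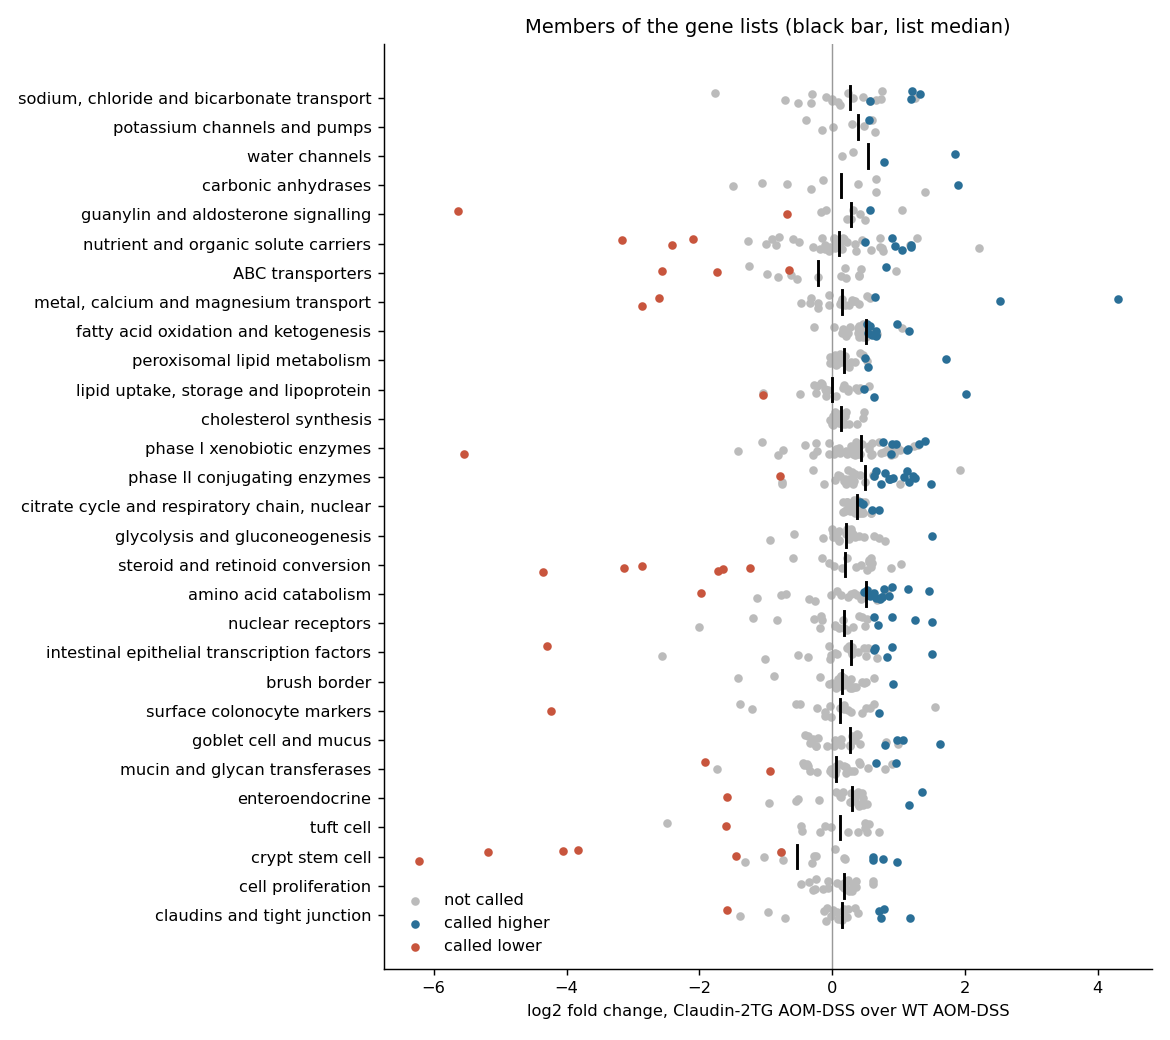
Log2 fold change of each tested member of the 29 transport, metabolism and differentiation lists, blue for genes called higher in Claudin-2TG AOM-DSS mice, red for genes called lower and grey for genes not called, with list medians as black bars. Medians are highest for water channels (0.55), amino acid catabolism (0.51), fatty acid oxidation and phase II enzymes (0.50 each) and lowest for crypt stem cell genes (-0.52).

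Markers of other cell types changed alongside these groups. Of the listed markers tested, 8 of 9 macrophage, 9 of 10 T cell, 5 of 9 B and plasma cell, 3 of 10 fibroblast and 4 of 8 endothelial genes fell and none rose (7.35% of all genes fell). Some of these markers passed the filter on low counts only through WT AOM-DSS mice, where they were high: with at least 10 counts required in every mouse, 8 of 8, 3 of 3, 2 of 3, 3 of 9 and 3 of 8 were called lower. For neutrophil and mast cell markers this left 1 gene each, not called, so no count is given for them. Of the summed neutrophil markers, Ly6g made up 85.6% to 99.9% in the AOM-DSS mice, and the other 9 summed to 2.91 to 54.7 CPM in WT AOM-DSS mice and to 0.366 to 0.759 CPM in Claudin-2TG AOM-DSS mice. Without Claudin-2TG AOM-DSS mouse 8, none of the macrophage, T cell, B and plasma cell and fibroblast markers and 1 endothelial marker were called. Summed macrophage markers ranged from 151 to 334 CPM in WT AOM-DSS mice and from 41.3 to 78.4 CPM in Claudin-2TG AOM-DSS mice, and summed endothelial markers from 58.7 to 71.4 CPM and from 25.8 to 31.8 CPM. Paneth cell markers summed to 188 to 1896 CPM in WT AOM-DSS mice and to 30.4 to 37.8 CPM in Claudin-2TG AOM-DSS mice, with Lyz1 called. None of 10 smooth muscle markers was called, and the sums of the groups overlapped (1128 to 3187 CPM and 1040 to 1599 CPM). Their part in the differences of the transport, metabolic and differentiation genes was not tested; with counts scaled to the pan-epithelial markers instead, 211 genes were called higher, of which 174 were among the 326, and 1065 lower.

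**Figure D5:**
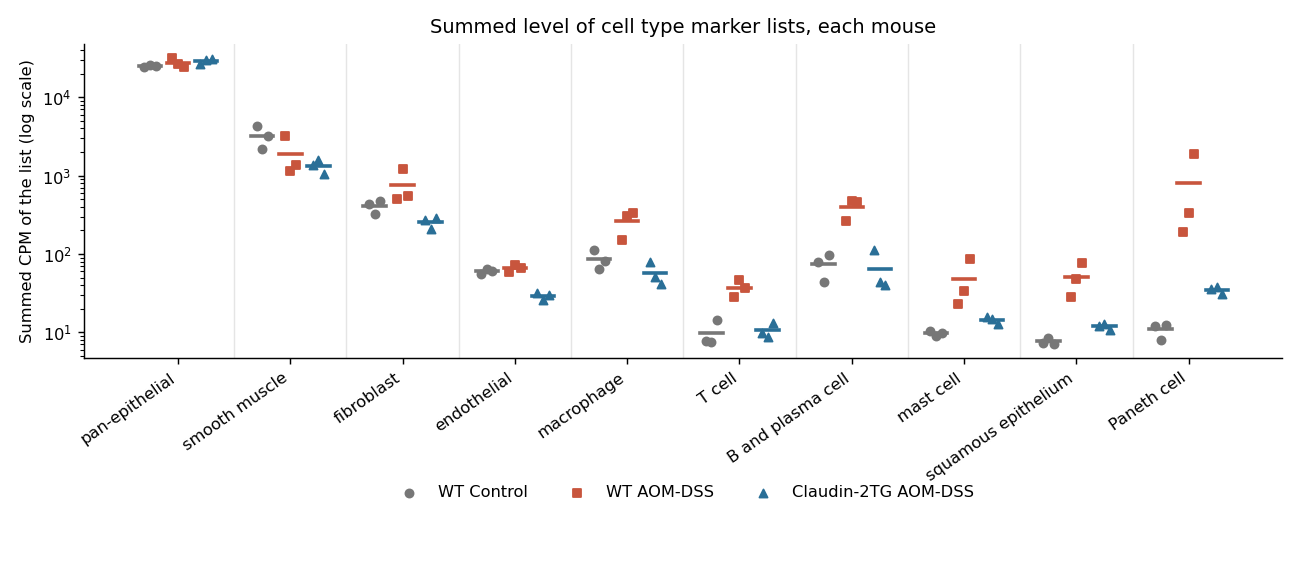
Summed CPM (log axis) of the marker lists of 10 cell types in each mouse, with symbols as above and bars for group means. The pan-epithelial and smooth muscle sums of the AOM-DSS groups overlap, and the other sums are lower in all 3 Claudin-2TG AOM-DSS mice than in all 3 WT AOM-DSS mice.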

How the data were processed

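RNA of the colon was measured by RNA-Seq in 9 mice, 1 library a mouse, each sequenced in 2 lanes. The authors deposited whole-number gene counts without normalization for 47729 genes and 18 lanes. Counts came from featureCounts of the Subread package; the paper names TopHat2 as the aligner, whereas the submitters' processing notes name HISAT2, with GRCm38 as the build. Versions and the strand setting are not given in the sources used here, so antisense partners cannot be told apart. Symbols came from GENCODE M21, where 47310 identifiers were found and 419 were not.

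Lanes of a library differed by at most slightly more than sampling noise (chi-square per degree of freedom 0.995 to 1.06) and were summed. The main fit was edgeR 4.0.16 in R 4.3.3 on the 6 AOM-DSS mice, filtered by filterByExpr at its defaults (minimum count 10, total 15) and scaled by TMM. Its robust quasi-likelihood test was two-sided, and p-values were adjusted by Benjamini-Hochberg across every gene tested. A gene was called at an adjusted p under 0.05. The biological coefficient of variation was 0.217. The paper's tool, DESeq2 1.42.0, was an alternative, as were upper-quartile, library-size and pan-epithelial scaling, 2 other filters, all 9 mice, single lanes, a log2 fold change of at least 1 and each mouse left out in turn. Nothing in the labels says that mice of a group came from separate litters or cages, so p-values measure the spread between these mice. Replicate numbers are mouse numbers, which no groups share. The scripts were tested on simulated data.

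Genes named were Cldn2, the 12 largest upward and 6 largest downward called genes (mean of at least 1 CPM in the higher group and no overlap), the 6 largest upward differences in CPM, the genes marked as key in the lists, and the 3 largest called members of each transport, metabolism and differentiation list. Other genes are named to complete a count of called list members or because single mice did not decide their calls, after their values were seen. Predicted genes and pseudogenes were counted but not named by this rule, and a few genes that it chose are not reported here. The members and lists were chosen with earlier results of these data known. Figures and tables were made with Python 3.11.15, pandas 2.3.3 and matplotlib 3.10.9.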

Additional observations from a re-analysis of the deposited data

How the results depend on the processing

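Genes called higher in Claudin-2TG AOM-DSS mice numbered 588 with DESeq2 (320 of the 326 among them), 642 with all 9 mice in the fit, 211 scaled to pan-epithelial marker RNA and 108 at a log2 fold change of at least 1, against 326, and 10 to 919 with 1 mouse left out. Genes called lower numbered 671 with at least 10 counts in every mouse, against 1095, and 48 to 1975 with 1 mouse left out. The lowest numbers came without Claudin-2TG AOM-DSS mouse 8 and the highest without WT AOM-DSS mouse 4. The log2 fold change of Cldn2 was 0.71 to 0.84 with 1 mouse left out and lost its call without mouse 8 or 9. Counts under the remaining alternatives stayed within 1.5 times. No paired analysis was possible because the groups share no replicate number. The lowest depth was 14142711 counts, and groups of 3 mice limit what could be called.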

Other observations

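Among the 326 genes called higher, 49 were above every one of the other 6 mice in each Claudin-2TG AOM-DSS mouse, as were 425 of all 14888 genes tested. Of the 1095 called lower, 377 were below every other mouse in each transgenic mouse, as were 726 of all genes tested. Both sets of called genes were selected on the same transgenic mice. The genes in this paragraph were chosen after their values were seen. Lyplal1, a lysophospholipase-like gene, was at 21.1 to 21.5 CPM in Claudin-2TG AOM-DSS mice, at 6.34 to 9.51 CPM in WT AOM-DSS mice and at 10.7 to 11.5 CPM in WT Control mice. Sycn, a secretory granule protein, was at 1683 to 2359.5 CPM in Claudin-2TG AOM-DSS mice and at 221 to 971 CPM in the other 6, and its adjusted p in edgeR was 0.0712.

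One gene had at least 10 counts in every Claudin-2TG AOM-DSS mouse and at most 3 in each of the other 6: Gm13736, a processed pseudogene on chromosome 2 (87526145 to 87526397), with 47, 59 and 36 counts in mice 7, 8 and 9, 1 count in WT AOM-DSS mouse 5 and none in the other 5. No gene had the reverse pattern. Y-linked genes (Ddx3y, Eif2s3y, Kdm5d and Uty) summed to 0.497 CPM in WT Control mouse 1 and to 146 to 190 CPM in the other 8 mice.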
